A study of Homo sapiens with 3 samples.

Results

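The 9 genes described here are long noncoding RNAs (lncRNAs): ESRG, LNCPRESS1, RMST, FOXD3-AS1, LINC01356, LINC01405, LINC02653, LINC02144 and LINC02086. They were picked by symbol from the 36601 genes counted in the series, after their levels by day and by cell were known, so what follows describes those levels and tests nothing. All 9 symbols were found, 1 gene each. The cells are of UCLA1, which is an established line of human embryonic stem cells, grown as the culture that the labels name GiMO and taken at day 1, day 2 or day 3, with 1 droplet (10x Genomics) library of polyadenylated RNA per day. The title of the series concerns a timed response to BMP4, TFAP2A-expressing cells and the transition of epithelial into mesenchymal cells. When BMP4 was given is not stated in the labels used here, and no untreated library was analysed here.

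A lncRNA is transcribed and often spliced and polyadenylated like a messenger RNA, but codes for no known protein. Human pluripotent cells, which can form every tissue of the embryo, carry a set of them beside the transcription factors POU5F1, SOX2 and NANOG. When such cells enter the primitive streak they switch on TBXT, MIXL1 and EOMES, and the mesoderm that leaves the streak switches on MESP1 and then factors such as HAND1 and LHX1. SOX2 is turned off along that path.

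The 3 libraries held 4889, 10580 and 7860 barcodes at days 1, 2 and 3, of which 3677, 7892 and 7261 cells were kept. The kept cells had medians of 42295, 16007.5 and 19576 UMIs, the counted molecules, and each pair of days shared 5 to 13 kept barcodes. Levels are CPM, UMIs summed over cells and scaled to a common library total. The pluripotent identity in the labels was checked on SOX2, which stood at 186 CPM at day 1, 79.4 at day 2 and 6.60 at day 3. POU5F1 stood at 1175, 1036 and 402 CPM, and MESP1 at 0.614, 76.1 and 317 CPM. With 1 library per day, a difference between days cannot be told apart from a difference between libraries. Intervals are at 95% and reflect counting error alone.

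ESRG, LNCPRESS1, RMST and FOXD3-AS1 are the members with a known place in pluripotent cells. ESRG derives from an endogenous retrovirus of the HERV-H family and is a classic RNA of human pluripotent cells. It lies on chromosome 3 (hg38, 54632122 to 54639857, minus strand), inside CACNA2D3, a calcium channel subunit gene on the other strand, and shares 0 exon bases with it. LNCPRESS1 is a p53-regulated lncRNA that keeps the deacetylase SIRT6 from chromatin in human embryonic stem cells, and lies on chromosome 7 (101299558 to 101301346, plus strand). RMST is known to bind SOX2, was also studied in neural cells, and lies on chromosome 12 (97430884 to 97598415, plus strand). FOXD3-AS1 lies on chromosome 1 (63320878 to 63324441, minus strand), head to head with FOXD3, a transcription factor of pluripotent and neural crest cells, and 618 of its 2242 exon bases overlap FOXD3 on the other strand. No source used here says whether the authors' counting used strand, so whether it told reads from those bases apart is not known here.

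Promoters were read from RefSeq (GRCh38.p14) as windows of 300 bases, 250 before and 50 after the start. They were there for 6 of the 9 members, and not for ESRG, LINC01405 and LINC02653. The 4 below are those of 3 RNAs whose levels went together across cells, LNCPRESS1, RMST and FOXD3-AS1, and of LINC02144, which went the other way. They are written 5′ to 3′ on the strand of the gene, and capitals mark every match on either strand to 6 short motifs: the octamer of POU factors ATGCAAAT, the SOX-type letters ACAATG, a second SOX-type motif ACAAAG, the T-box core AGGTGT, the GATA-type letters AGATAA and the TATA box TATAAA. The windows are chr7:101299363-101299662 (plus strand), chr12:97464441-97464740 (plus), chr1:63322409-63322708 (minus) and chr5:87733027-87733326 (minus), in the order of the lines.
LNCPRESS1: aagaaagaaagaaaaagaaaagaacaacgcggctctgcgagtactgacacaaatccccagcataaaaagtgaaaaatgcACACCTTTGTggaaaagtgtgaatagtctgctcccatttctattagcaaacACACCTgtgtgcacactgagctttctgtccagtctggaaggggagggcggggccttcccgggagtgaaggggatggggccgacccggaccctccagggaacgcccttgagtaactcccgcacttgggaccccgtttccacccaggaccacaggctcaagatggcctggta
RMST: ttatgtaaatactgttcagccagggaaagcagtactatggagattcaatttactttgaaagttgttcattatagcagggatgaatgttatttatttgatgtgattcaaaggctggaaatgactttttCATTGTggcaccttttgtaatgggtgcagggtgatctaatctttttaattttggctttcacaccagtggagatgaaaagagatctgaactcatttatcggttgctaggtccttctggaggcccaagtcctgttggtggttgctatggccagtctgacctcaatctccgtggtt
FOXD3-AS1: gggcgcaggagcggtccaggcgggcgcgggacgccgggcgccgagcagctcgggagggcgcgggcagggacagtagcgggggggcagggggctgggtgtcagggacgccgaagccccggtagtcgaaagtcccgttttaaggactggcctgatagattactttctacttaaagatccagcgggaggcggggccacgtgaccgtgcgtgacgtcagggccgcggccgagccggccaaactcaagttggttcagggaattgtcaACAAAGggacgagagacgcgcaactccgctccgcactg
LINC02144: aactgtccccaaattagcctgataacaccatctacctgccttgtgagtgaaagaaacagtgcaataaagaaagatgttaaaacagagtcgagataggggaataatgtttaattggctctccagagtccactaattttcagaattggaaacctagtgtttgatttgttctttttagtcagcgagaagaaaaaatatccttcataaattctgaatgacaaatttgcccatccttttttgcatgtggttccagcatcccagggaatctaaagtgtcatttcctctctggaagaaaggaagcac

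In the LNCPRESS1 window the T-box letters, read on the minus strand, began at positions -171 and -120 from the start, and the SOX-type ACAAAG at -167 overlapped the first of them. RMST held ACAATG on the minus strand at -123 in this window, which starts inside the longer gene of the annotation; its other RefSeq window held no match. FOXD3-AS1 held ACAAAG at position 13 after the start, and that window covers the first bases of FOXD3. Of all 35116 promoters of this length, 16.1% held ACAAAG, 10.8% ACAATG, 11.4% AGGTGT, 10.3% AGATAA, 11.5% TATAAA and 1.77% ATGCAAAT. Such short matches are therefore common, and a match here is a description of letters. The windows of LINC02144, LINC01356 and LINC02086 held none of these letters.

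On the totals of the whole libraries, the 4 pluripotency lncRNAs except LNCPRESS1 stayed near their first level to day 2. All 4 were far lower at day 3. ESRG had 391.7 CPM at day 1, 404 at day 2 and 61.5 at day 3, which was 6.37-fold lower at day 3 than at day 1 (6.23 to 6.51). LNCPRESS1 had 157, 91.3 and 8.05 CPM, and was 19.5-fold lower at day 3 than at day 1 (18.4 to 20.7). RMST had 63.7, 53.9 and 4.73 CPM, 13.5-fold lower at day 3 than at day 1 (12.5 to 14.5). On the log scale, each of these 3 RNAs had most of its difference between days 2 and 3. FOXD3-AS1 had 66.4, 64.2 and 12.9 CPM, a 5.13-fold lower level at day 3 (4.89 to 5.38). The sign of the ESRG difference between days 1 and 2 rests on the scaling. Its log2 ratio was 0.04 on library totals, -0.28 with TMM factors and -0.28 with median-of-ratios factors. With TMM factors the log2 ratio of RMST went from -0.24 to -0.57, and that of FOXD3-AS1 from -0.05 to -0.38.

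LINC01405, on chromosome 12 (110934590 to 110959093, plus strand), was lower at day 2 already and lower again at day 3. It had 153 CPM at day 1, 59.3 at day 2 and 9.73 at day 3, so that it was 2.59-fold lower at day 2 than at day 1 (2.52 to 2.65) and 15.8-fold lower at day 3 than at day 1 (15.0 to 16.6). On library totals it was the 1 member past 2-fold lower between the first 2 days. LNCPRESS1 was 1.72-fold lower there (1.69 to 1.76), and passed 2-fold with TMM scaling, at a log2 ratio of -1.11.

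LINC01356, on chromosome 1 (112820170 to 112850643, minus strand), peaked at day 2. Its level was 57.8 CPM at day 1, 269 at day 2 and 152 at day 3. Day 2 was 4.64-fold above day 1 (4.54 to 4.75), and day 3 was 1.76-fold below day 2 (1.73 to 1.79). Of the other members, ESRG was highest at day 2 as well, 1.03-fold above day 1.

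LINC02653, LINC02144 and LINC02086 were scarce at day 1 and highest at day 3. LINC02653, on chromosome 10 (90402521 to 90628852, minus strand), had 0.844, 9.15 and 15.1 CPM at days 1, 2 and 3, and so differed mostly between days 1 and 2, where it was 10.8-fold higher at day 2 (9.13 to 13.0). LINC02144, on chromosome 5 (87665345 to 87733269, minus strand), had 0.643, 2.69 and 74.9 CPM. LINC02086, on chromosome 17 (48646923 to 48707346, plus strand), had 0.304, 1.12 and 29.1 CPM. Both differed mostly between days 2 and 3: LINC02144 was 27.8-fold higher at day 3 than at day 2 (25.1 to 30.9) and LINC02086 26.0-fold (22.1 to 30.8). Day 1 rested on 147, 112 and 53 UMIs of these RNAs among 174216674.

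**Figure D1:**
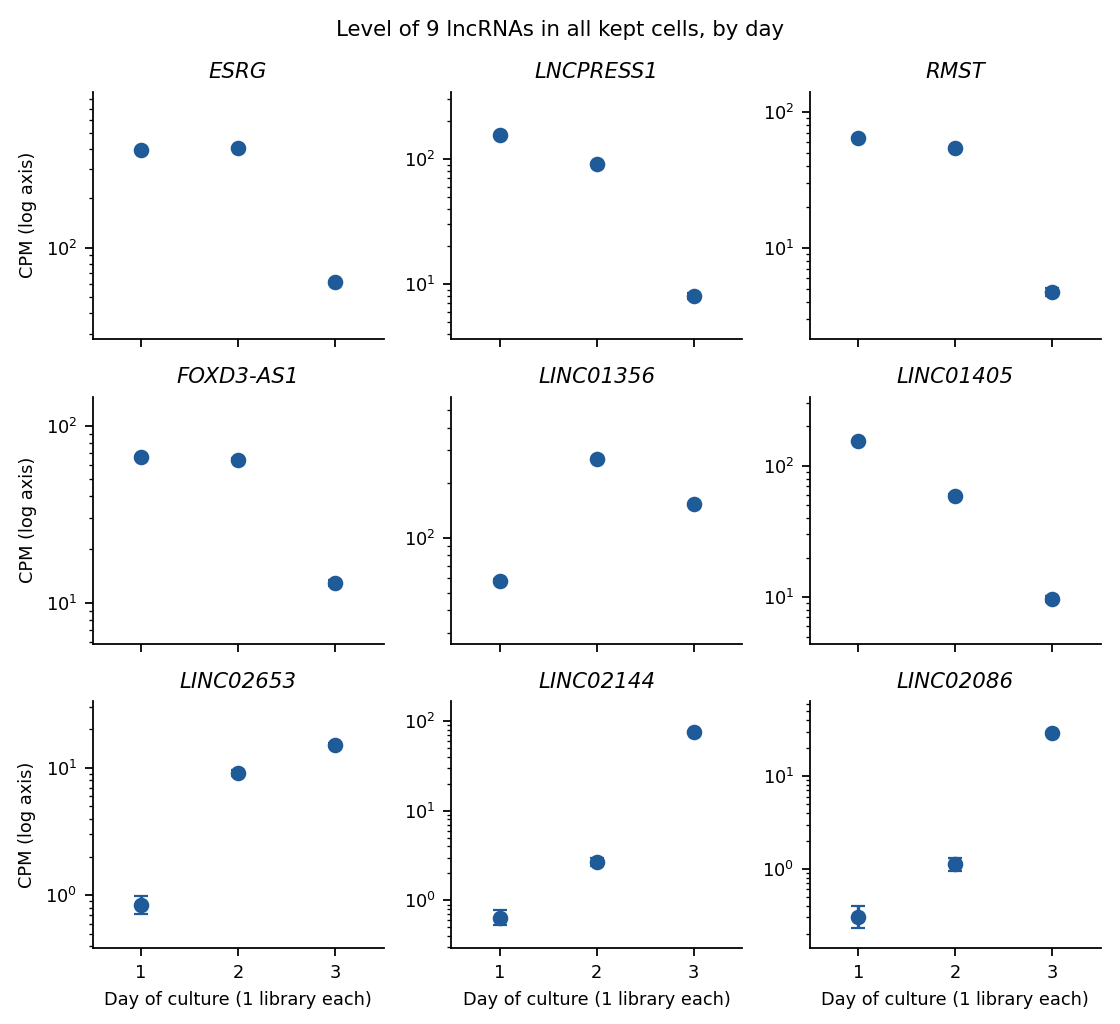
Level of each of the 9 lncRNAs in CPM (log axis) against day of culture; a point is 1 library and the bars are exact Poisson 95% intervals, often smaller than the point. On library totals, ESRG, RMST and FOXD3-AS1 stay near their level to day 2 and drop at day 3. LINC01356 peaks at day 2, and LINC02144 and LINC02086 reach 74.9 and 29.1 CPM at day 3.

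A gene was counted as apart between days when its CPM ratio was at least 2, its higher library had at least 2 CPM and its interval excluded 1. At day 3 against day 1, 4 of the 9 members were higher and 5 lower; the same rule took in 17.7% of all genes as higher and 9.95% as lower, and among lncRNA genes 29.9% and 14.1%. At day 3 against day 2, 2 of 9 were higher and 5 lower, where the shares of all genes were 7.81% and 8.97% and of lncRNA genes 12.7% and 15.3%. At day 2 against day 1, 3 of the 8 members with 2 CPM were higher and 1 was lower, where the shares were 7.91% and 1.14% of all genes and 23.0% and 1.73% of lncRNA genes. With TMM scaling that last split became 3 higher and 2 lower, as LNCPRESS1 passed 2-fold. The scaling moves the split over all genes too: 1125 higher and 162 lower at day 2 against day 1 became 644 and 578 with TMM scaling, and 2587 and 1452 at day 3 against day 1 became 1728 and 2335. The members were picked on such ratios, so their counts say nothing beyond the choice.

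Shares of cells followed the levels. After each cell was thinned to 5000 UMIs, an ESRG UMI was found in 83.0% of 3643 cells at day 1, 80.5% of 7408 at day 2 and 17.2% of 7132 at day 3. Without thinning, those shares were 99.1%, 93.4% and 36.1%. LNCPRESS1 was found in 51.7%, 29.4% and 2.69% of thinned cells, LINC01356 in 21.8%, 60.9% and 41.8%, and LINC02144 in 0.384%, 1.32% and 21.3%. Unthinned, the LNCPRESS1 shares were 93.8%, 52.5% and 8.10%, the LINC01356 shares 71.3%, 79.8% and 73.7%, and the LINC02144 shares 2.80%, 3.71% and 39.6%. The unthinned LINC01356 shares hardly differ between days 1 and 3, where cells at day 1 were the deeper ones. The other 5 members had thinned shares between 0.110% and 49.0% at day 1 and between 1.85% and 9.76% at day 3.

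To see which cells held the RNAs, thinned cells were sorted by 4 marker genes. MESP1 cells had a MESP1 UMI. Streak cells had TBXT or MIXL1 without MESP1 or SOX2, and SOX2-only cells had SOX2 without the other 3. Cells with both SOX2 and a streak gene and unmarked cells made up the rest. SOX2-only cells were 51.8% of cells at day 1, 16.9% at day 2 and 0.841% (60 cells) at day 3, and MESP1 cells were 0.439%, 18.98% and 63.6%. The 16 MESP1 cells of day 1 were too few to use. A cell without a marker UMI may still express that gene at this depth.

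The lncRNAs known from pluripotent cells were all lower in MESP1 cells. At day 2, ESRG had 252 CPM in MESP1 cells, against 525 in SOX2-only cells, 2.08-fold lower (1.97 to 2.21). LNCPRESS1 had 25.9 CPM in MESP1 cells, against 181 in SOX2-only cells, 6.99-fold lower (5.97 to 8.22). RMST had 13.1 CPM in MESP1 cells, against 115 in SOX2-only cells, 8.82-fold lower (7.09 to 11.1). The contrast was thus steeper for LNCPRESS1 and RMST than for ESRG, which 64.9% of MESP1 cells still showed, against 90.6% of SOX2-only cells. FOXD3-AS1 was 5.42-fold lower in MESP1 cells (4.59 to 6.43) and LINC01405 2.46-fold lower (2.10 to 2.90).

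LINC01356 and LINC02653 ran the other way at day 2. LINC01356 had 351 CPM in MESP1 cells, against 148 in SOX2-only cells, 2.36-fold higher (2.19 to 2.55), and streak cells with 339 CPM differed little from MESP1 cells. LINC02653 had 23.0 CPM in MESP1 cells, against 1.92 in SOX2-only cells, 12.0-fold higher (6.70 to 23.8), with streak cells between them at 9.33 CPM. It showed in 8.75% of MESP1 cells, against 0.958% of SOX2-only cells, whose median depths before thinning were 16211 and 16825 UMIs. LINC02144 and LINC02086 had 33 and 11 UMIs in the MESP1 cells of day 2 and 18 and 4 in the SOX2-only cells, and their ratios had intervals that include 1. Of the 8 members with 2 CPM in either class, 2 were higher and 5 lower in MESP1 cells, where the rule takes in 6.00% and 6.12% of all genes. Without thinning 3 were lower, since ESRG and LINC01405 then had log2 ratios of -0.79 and -0.69, against -1.06 and -1.30 with it. With 10000 UMIs per cell 4 were higher, LINC02144 and LINC02086 with log2 ratios of 1.56 and 2.43 among them, and LINC01405 was at -0.98.

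At day 3 the 5 lower members stood further apart. LNCPRESS1 had 2.96 CPM in MESP1 cells, against 150.0 in SOX2-only cells, 50.7-fold lower (34.0 to 75.1). RMST had 2.07 CPM in MESP1 cells, against 90.0 in SOX2-only cells, 43.4-fold lower (26.0 to 71.1). ESRG had 37.7 CPM in MESP1 cells, against 413 in SOX2-only cells, 10.97-fold lower (9.01 to 13.3). These ratios rest on 45, 27 and 124 UMIs in 60 SOX2-only cells. A LNCPRESS1 UMI was seen in 1.26% of MESP1 cells, against 46.7% of SOX2-only cells, with median depths of 20106 and 20418 UMIs.

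Among the members higher at day 3, LINC02144 had 62.5 CPM in MESP1 cells, against 10.0 in SOX2-only cells, 6.25-fold higher (2.13 to 30.4) on 3 UMIs in SOX2-only cells. LINC02653 had 17.5 CPM in MESP1 cells, against 0 UMIs in SOX2-only cells. Taking 3 UMIs over that class as the floor, it was 1.75-fold higher, and the interval of the ratio itself began at 1.41. LINC02086 had 25.3 CPM in MESP1 cells, against 16.7 in SOX2-only cells, with an interval for the ratio of 0.647 to 4.70. Apart from LINC02653, which the rule counts as higher for its 0 UMIs although the floor does not place it past 2-fold, 1 member was higher and 5 lower in MESP1 cells. The rule takes in 3.99% and 8.97% of all genes.

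MESP1 cells were not where LINC02144 and LINC02086 were highest. At day 3, unmarked cells had 125 CPM of LINC02144 (116 to 134), against 62.5 in MESP1 cells (59.3 to 65.9). They had 51.8 CPM of LINC02086 (46.3 to 57.9), against 25.3 in MESP1 cells (23.3 to 27.5). The unmarked cells of day 3 had 520 CPM of HAND1, against 469 in MESP1 cells, but other mesoderm genes were lower in them: LHX1 had 276 CPM against 786 in MESP1 cells, GATA6 102 against 308 and MSGN1 5.05 against 26.1. MALAT1, a nuclear lncRNA whose share of UMIs often moves with RNA quality, was at 4839 CPM in those unmarked cells, against 3148 in MESP1 cells, and its part in the result was not tested.

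**Figure D2:**
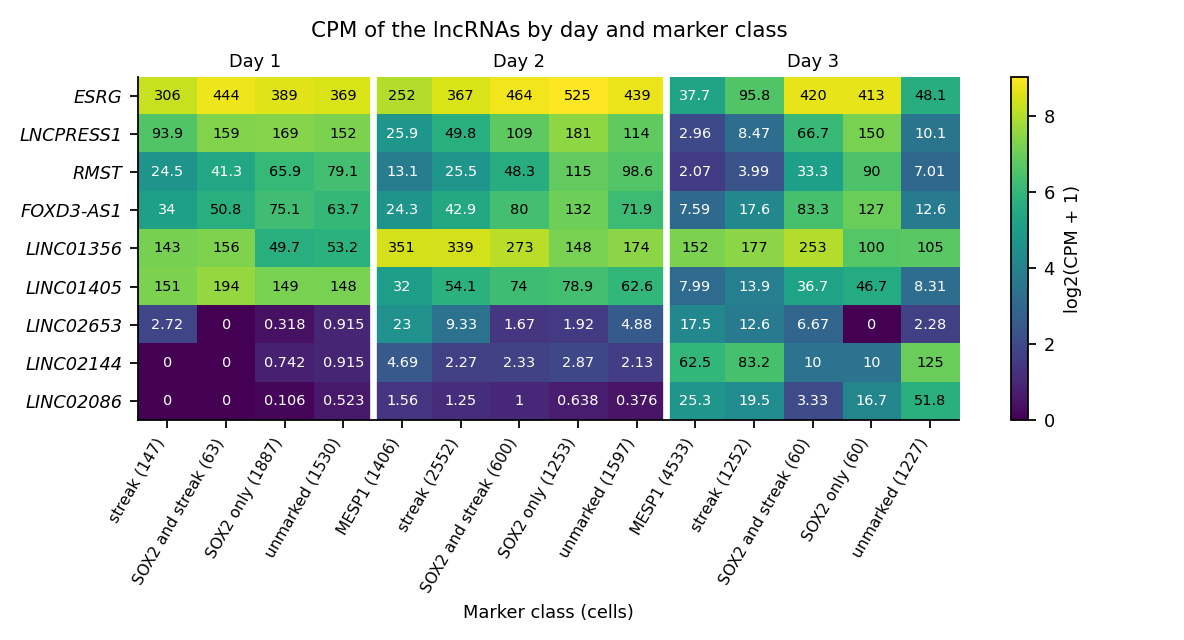
CPM of each lncRNA (rows, printed in the cells) in 14 day and marker class combinations (columns, number of cells in brackets), coloured by log2(CPM + 1). The first 4 rows and LINC01405 are lowest in the MESP1 column of day 3, LINC01356 is highest in the MESP1 and streak columns of day 2, and the last 2 rows are highest in the unmarked column of day 3.

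Day 1 already held the first differences. In its 147 streak cells LINC01356 had 143 CPM, against 49.7 in SOX2-only cells, 2.87-fold higher (2.30 to 3.56). RMST had 24.5 CPM in streak cells, against 65.9 in SOX2-only cells, 2.69-fold lower (1.69 to 4.57), and FOXD3-AS1 was 2.21-fold lower (1.48 to 3.44). By the rule 1 member was higher and 2 lower of 7 with 2 CPM, where 2.86% and 1.40% of all genes pass. LINC02653 had a ratio of 8.56, but with an interval of 0.715 to 74.7. LINC01405 had 151 CPM in streak cells and 149 in SOX2-only cells, a ratio of 1.01 (0.825 to 1.23), so at day 1 these classes differed in LINC01405 by no more than counting error.

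Levels within 1 class were then set side by side across days. In SOX2-only cells ESRG had 389, 525 and 413 CPM at days 1, 2 and 3, and the ratio of day 3 over day 1 was 1.06 (0.881 to 1.27). LNCPRESS1 had 169, 181 and 150.0 CPM, a ratio of 0.887 (0.645 to 1.19), and RMST had 65.9, 115 and 90.0 CPM, a ratio of 1.37 (0.892 to 2.01). FOXD3-AS1 had 75.1, 132 and 127 CPM, 1.69-fold higher at day 3 than at day 1 (1.18 to 2.34). On class totals, none of these 4 RNAs was lower in SOX2-only cells at day 3 than at day 1 by more than counting error, while each was at least 5.13-fold lower in the whole library. That depends on the scaling. With TMM factors of the libraries the LNCPRESS1 ratio was 0.714 (0.519 to 0.960), and FOXD3-AS1 was at 1.36 with an interval that includes 1 (0.952 to 1.88). With TMM factors computed on the class sums, LNCPRESS1 was at 0.635 (0.462 to 0.854) and ESRG at 0.760 (0.631 to 0.910). The RMST interval included 1 in each, at ratios of 1.099 and 0.978. LINC01405 differed: it had 149, 78.9 and 46.7 CPM in SOX2-only cells, 3.20-fold lower at day 3 than at day 1 (1.90 to 5.87). LINC01356 had 49.7, 148 and 100.0 CPM in the same class, and was 2.98-fold higher at day 2 than at day 1 (2.67 to 3.34), or 2.37-fold with TMM factors of the libraries. Free RNA from other cells of the library can add UMIs there. At day 2 the LINC01356 level of SOX2-only cells was 42.3% of that of MESP1 cells (39.2 to 45.6). That share was 26.8% for EOMES, 2.63% for HAND1, 2.10% for LHX1, 1.35% for GATA6 and 0.474% for MSGN1. The part of free RNA in the LINC01356 level of SOX2-only cells was not tested.

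In MESP1 cells the levels of all 9 members differed between days 2 and 3 by more than counting error, with each of the 4 scalings tried. ESRG was 6.69-fold lower in MESP1 cells of day 3 than of day 2 (6.16 to 7.26), LNCPRESS1 8.76-fold (6.58 to 11.8) and RMST 6.31-fold (4.39 to 9.17). LINC01356 was 2.30-fold lower (2.19 to 2.43) and LINC02653 1.32-fold lower (1.09 to 1.59), although LINC02653 was 1.65-fold higher at day 3 in the whole library (1.54 to 1.76). LINC02144 was 13.3-fold higher in MESP1 cells of day 3 (9.44 to 19.4) and LINC02086 16.2-fold (8.98 to 32.6). The mix of classes and the level within them can be set side by side. With the day 2 level of each class and the day 3 class shares, ESRG would have 308 CPM, and with the day 3 level of each class and the day 2 shares 154, where the thinned libraries had 395 CPM at day 2 and 56.1 at day 3. For LINC02653 the 2 sums give 17.2 and 8.70 CPM, where the libraries had 9.10 at day 2 and 13.8 at day 3.

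**Figure D3:**
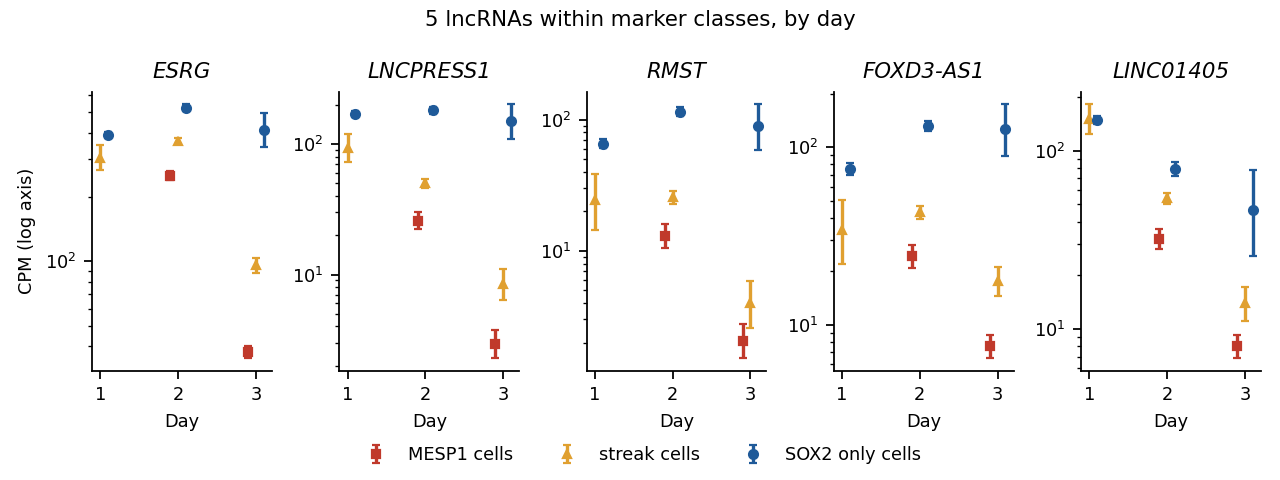
CPM (log axis) of ESRG, LNCPRESS1, RMST, FOXD3-AS1 and LINC01405 by day in MESP1 cells (squares), streak cells (triangles) and SOX2-only cells (circles), with exact Poisson 95% intervals. At day 3 the first 4 RNAs are higher in SOX2-only cells than in the other classes shown, ESRG at 413 CPM. The LINC01405 points are lower in every class at each later day. In SOX2-only cells its ratio of day 3 over day 2 was 0.592, with an interval of 0.321 to 1.003.

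The RNAs of day 3 were also set against other marker genes. A split of the cells by HAND1, which marks lateral plate and extraembryonic mesoderm, and LHX1, a factor of the anterior streak and of mesoderm, was added after the ratios of single markers had been seen. Of 7132 cells at day 3, 1408 had HAND1 without LHX1, 3636 had both, 1005 had LHX1 without HAND1 and 1083 had neither.

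LINC02086 was highest in the cells with HAND1 without LHX1. It had 75.7 CPM there and 16.2 in cells with both, against 8.36 in cells with LHX1 without HAND1 and 27.7 in cells with neither. The cells with HAND1 without LHX1 were 9.06-fold above those with LHX1 without HAND1 (6.61 to 12.7). Between these groups LINC02653 went the other way. It had 5.97 CPM in cells with HAND1 without LHX1, against 35.2 in cells with LHX1 without HAND1, 5.90-fold lower (4.20 to 8.48). Like LINC02086, it was lower in cells with both markers, at 9.41 CPM, than in cells with neither, at 18.7. LINC02144 was highest where both markers were found, with 107 CPM in those cells and 66.1 with HAND1 alone, against 43.98 with LHX1 alone and 14.0 in cells with neither. LINC01356 was highest in cells with neither, with 118 CPM with HAND1 alone and 107 with both, against 198 with LHX1 alone and 283 with neither. ESRG followed LINC01356 in that, with 40.1 CPM with HAND1 alone and 19.9 with both, against 61.1 with LHX1 alone and 194 with neither.

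**Figure D4:**
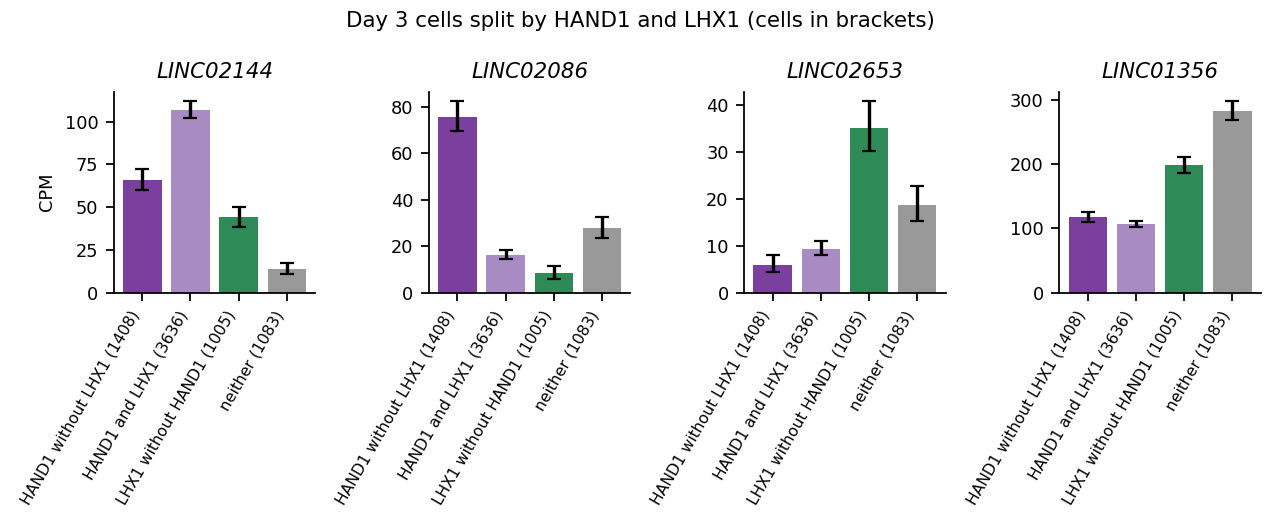
CPM of LINC02144, LINC02086, LINC02653 and LINC01356 in day 3 cells split by HAND1 and LHX1 (number of cells in brackets), with exact Poisson 95% intervals. LINC02086 peaks at 75.7 CPM with HAND1 alone, LINC02653 at 35.2 with LHX1 alone, LINC02144 at 107 with both, and LINC01356 at 283 with neither.

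Single markers at day 3 fill in this picture. LINC02086 had 50.1 CPM in the 826 cells with ISL1, against 25.8 in cells without it, 1.94-fold higher (1.66 to 2.27), and 45.4 CPM in cells with GATA3, against 24.3 without. ISL1 and GATA3 are both known from amnion and GATA3 also from trophoblast, and the 5 amnion markers searched, TFAP2A, GATA3, ISL1, IGFBP3 and WNT6, summed to 40.6, 43.4 and 103 CPM at days 1, 2 and 3; 4 of the 5 were higher at day 3 than at day 1, 2 of which were under 2 CPM at day 1, and TFAP2A was at 13.1, 15.5 and 8.74 CPM. By the 2-fold rule 17.7% of all genes were higher at day 3 than at day 1. Levels of LINC02086 in cells with TFAP2A, IGFBP3 or WNT6 are not given here. ISL1 and GATA3 alone do not name those cells as amnion, and the part of these markers in the LINC02086 level was not tested. LINC02653 had 18.8 CPM in cells with MIXL1, against 5.22 without, 3.61-fold higher (2.79 to 4.72), and 27.3 CPM in cells with TBX6, a factor of presomitic mesoderm, against 12.0 without. LINC01356 had 347 CPM in the 255 cells with SOX17, a factor of endoderm and germ cells, against 142 without, 2.45-fold higher (2.22 to 2.70), and 350 CPM in cells with NANOG, against 141 without. LINC02144 was lower in the cells with SOX17, with 11.8 CPM against 78.3 without, 6.66-fold.

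Pairs of members met in the same cells more often than an independent spread gives in some cases and less often in others. At day 3, 31 cells held both LNCPRESS1 and RMST, where 3.55 would if the 2 were spread independently, a ratio of 8.72. LNCPRESS1 and FOXD3-AS1 met in 61 cells against 9.48, and RMST and FOXD3-AS1 in 35 against 6.51. At day 1 the same 3 ratios were 0.952, 1.09 and 0.922. LINC02653 and LINC02086 met in 8 cells of day 3 where 35.2 were computed, a ratio of 0.227. LINC02144 and LINC02086, which share a pattern over days, met in 146 cells against 148. ESRG met LINC02653 in 99 cells against 62.2 and LINC01356 in 749 against 514, so pairs with different patterns over days also met more often than computed. Depth was equal after thinning, but cells of 1 library share their free RNA.

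Across the 14 day and class combinations, RNAs with the most similar pattern were looked for among 12202 genes with at least 10 CPM in 1 of them, by Pearson correlation of log2(CPM + 1). These points come from 3 libraries and share their depth and day, so the values are descriptions. ESRG was nearest to 2 other lncRNAs, AC009446.1 (r = 0.99) and AC064802.1 (0.99), and to MAL2 (0.99). LNCPRESS1 was nearest to AIG1 (0.99), IGSF21 (0.99) and SLC29A1 (0.98), where IGSF21 reached no more than 12.7 CPM, close to the minimum. RMST was nearest to FGD4 (0.99), TLE1 (0.98) and SLC22A23 (0.98), and FOXD3-AS1 to AK4, CNMD and VSNL1 (0.98 each). LINC01405 was nearest to FBXO2 (0.99), CARHSP1 (0.99) and RAB13 (0.98). LINC01356 was nearest to SP5 (0.95), a WNT target and factor of the streak, GAL (0.95) and TCEAL8 (0.92). LINC02653 was nearest to COL1A2 (0.95), EGF (0.93) and LRRC2 (0.92). LINC02144 was nearest to ATP11A, ST6GALNAC3 and HOXB9 (0.98 each), and LINC02086 to HOXB3 (0.98), HOXA13 (0.97) and PMP22 (0.96). Among the members themselves, LNCPRESS1 and RMST had r = 0.96 and LINC02144 and LINC02086 had r = 0.96.

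Genes next to the members were then looked up. LINC02086 lies in the region of the HOXB cluster of body axis genes, with HOXB7 13351 bases to its left and PRAC1 14373 bases to its right. HOXB7 had 0.0230 CPM at day 1, 0.250 at day 2 and 16.2 at day 3, and PRAC1 had 0.740, 5.26 and 13.7 CPM. LINC03057, on the other strand of LINC02086 with 32 shared exon bases, had 0.425, 1.17 and 23.1 CPM. All 3 neighbours were thus highest at day 3, like LINC02086.

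For the others the neighbours were mixed. FOXD3 had 4.93, 3.46 and 0.248 CPM at days 1, 2 and 3, and was 19.9-fold lower at day 3 than at day 1 (14.4 to 28.3), in the direction of FOXD3-AS1. CACNA2D3, around ESRG, had 64.3, 72.8 and 20.1 CPM, 3.20-fold lower at day 3 than at day 1. FIS1, the mitochondrial fission gene 47242 bases left of LNCPRESS1, had 296, 158 and 120 CPM, and IFT22, 9568 bases to its right, 44.7, 34.1 and 31.8. HTR7, a serotonin receptor gene 111971 bases right of LINC02653, had 88.3, 68.0 and 14.8 CPM, opposite in direction to LINC02653. The nearest coding gene of LINC01405 is MYL2, a myosin light chain of heart and slow muscle, and it had 0.924, 0.162 and 0.0261 CPM. LINC01405 shares 1258 exon bases with LINC01404 and LINC01356 shares 607 with LINC01357, each on the other strand. LINC01404 was listed at no more than 0.0287 CPM, and LINC01357 had 8.15, 7.74 and 7.70 CPM while LINC01356 went through its peak. LINC02488, which overlaps LINC02144 on the other strand with 0 shared exon bases, had 0.0115, 0.103 and 2.15 CPM.

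Lists of related genes give the setting; they too were written with earlier results known. Of 18 core pluripotency genes, 0 were higher and 9 lower at day 3 than at day 1. Their median log2 ratio was -1.25, where the median of all genes was 0.25. The 2-fold rule took in 17.7% of all genes as higher and 9.95% as lower. Among lncRNA genes those shares were 29.9% and 14.1%, and the counts here are on library totals. NANOG had 59.6, 56.7 and 10.8 CPM, and USP44, a deubiquitinase gene, 108, 71.3 and 8.32. All 15 mesoderm genes were higher at day 3 than at day 1 (median 7.46), 10 of which were under 2 CPM at day 1 and reached the minimum through day 3. Of 12 streak genes 10 were higher, 2 of them under 2 CPM at day 1, and NODAL was the 1 lower. Of 6 other pluripotency lncRNAs with 2 CPM, 3 were lower and 1 higher at day 3 than at day 1. LINC00678 had 207, 146 and 13.6 CPM and LNCPRESS2 25.4, 29.9 and 5.64, but LINC00458 had 8.47, 110 and 160 CPM. MIR302CHG, the host of the miR-302 cluster, had 552, 679 and 619 CPM. Pluripotency lncRNAs therefore did not all go 1 way in these libraries.

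Of 10 other lineage lncRNAs in the files, 5 reached 2 CPM at day 1 or day 3: HOTAIRM1, HOXB-AS3, FENDRR, EVX1-AS and H19. All 5 were under 2 CPM at day 1 and so reached it through day 3, which fixes their direction. HOTAIRM1, from the HOXA cluster, had 1.17, 13.4 and 79.1 CPM, and H19 had 1.60, 1.09 and 9.71. Of 17 general lncRNAs, 13 were past 2-fold in neither direction at day 3 against day 1. The same held for 10550 of all 14589 genes with 2 CPM, and for 1007 of 1797 lncRNA genes. MALAT1, NEAT1 and KCNQ1OT1 were higher and CYTOR was lower, with MALAT1 at 1287, 2726 and 3528 CPM and its part in the members' levels not tested. Of the 4 neural markers, PAX6, SOX1, NEUROD1 and ELAVL3, searched because RMST is also known from neural cells, the summed level was 0.620, 0.640 and 0.306 CPM and SOX1 was at 0 UMIs on every day. The 5 cardiac and muscle markers summed to 26.8, 27.5 and 198 CPM, of which ACTC1 alone had 16.4, 21.8 and 168. They did not move together: MYL7 had 3.76, 2.53 and 28.9 CPM, but TNNT2 had 5.74, 3.00 and 1.02, 5.61-fold lower at day 3 than at day 1 (4.74 to 6.68), and MYL2 was lower as well.

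The barcodes left out for low gene number or high mitochondrial share had other levels of some members. RMST had 124, 117 and 7.23 CPM in the removed barcodes of days 1, 2 and 3, where kept cells had 63.7, 53.9 and 4.73. LINC02144 had 247 CPM in the removed barcodes of day 3 (217 to 280), where kept cells had 74.9. LNCPRESS1 had 24.3, 36.4 and 2.07 CPM in removed barcodes, and LINC01356 had 9.76, 67.2 and 33.1, all below kept cells. These CPM are over all UMIs, mitochondrial ones included. The median mitochondrial share was 73.6%, 44.5% and 62.4% in removed barcodes, against 4.40%, 4.03% and 3.56% in kept cells. A larger mitochondrial share lowers the CPM of every other gene, and levels over the remaining UMIs were not computed. The share of barcodes removed was 24.8%, 25.4% and 7.62%. Kept cells below and above the median UMI count of day 3 had 69.5 and 77.7 CPM of LINC02144 and 150 and 153 of LINC01356. The gap was wider for LINC02653, with 10.8 and 17.2 CPM, and for ESRG, with 51.9 and 66.4. Every member had the higher level in the deeper cells of day 3.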

How the data were processed

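Human UCLA1 cells were sampled at day 1, 2 or 3, and each library took its group from the time label. The authors deposited raw UMI counts per gene and barcode, with no normalisation, made with Cell Ranger 5.0.1 on hg38 per the submitters' processing notes. The members, gene lists, markers and thresholds were chosen with earlier results of these data known. A barcode was kept if it had 1000 genes or more and a mitochondrial share of 20% or less; 1212, 2688 and 599 failed this (median mitochondrial share 73.6%, 44.5% and 62.4%). No doublet caller was used; an alternative leaves out the cells with the most UMIs, at 0.8% per 1000 barcodes. Kept cells held 174216674, 135839495 and 153405850 UMIs at days 1, 2 and 3. CPM has exact Poisson intervals, ratios exact conditional binomial ones and shares exact Clopper-Pearson ones, all at 95%; UMIs are counted molecules, so the intervals cover counting error only, and no p-value was computed with 1 library a day. A ratio against 0 UMIs counts as past 2-fold where its interval excludes 1, and folds against 0 are taken at 3 UMIs over the class. For classes and shares, cells were thinned at random to 5000 UMIs, leaving out 34, 484 and 129 shallower cells, and classes of at least 50 cells were used. The genes named are the members, the 3 most similar to each, neighbours, overlapping genes, markers and list members. Positions are from GENCODE release 44, which held 36366 of the 36601 gene IDs, and lncRNA genes are its class. Of the 11 other lineage lncRNAs, GSC-DT was not matched by symbol. Python 3.11.15, numpy 2.4.6, scipy 1.17.1, pandas 2.3.3 and, for TMM factors, edgeR 4.0.16 were used. The interval and call routine was tested on simulated data.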

Additional observations from a re-analysis of the deposited data

How the results depend on the processing

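Of the counts of members called by day, 56 under alternatives stayed within 1.5 times and 4 did not. At day 2 against day 1, the 3 higher became 1 with a minimum of 10 CPM, and the 1 lower became 2 with TMM scaling, with median-of-ratios scaling and with a fold of 1.5. Of the counts by class, 21 stayed and 3 did not. For MESP1 against SOX2-only cells, the 2 higher of day 2 became 4 when cells were thinned to 10000 UMIs, the 5 lower of day 2 became 3 without thinning, and the 2 higher of day 3 became 0 with at least 2 UMIs per marker, where 19 SOX2-only cells were left. The cause was not tested, except that a stricter minimum tests fewer members and a stricter marker leaves fewer cells. No member ratio reversed among those called; ESRG at day 2 against day 1, which was not called, changed sign with both scalings. The median log2 ratio over all genes was 0.24 at day 2 against day 1 and 0.25 at day 3 against day 1, and -0.10 and -0.08 with TMM scaling, which lowers every log2 ratio there by the same step. It moved the counts of all genes at day 2 against day 1 from 1125 higher and 162 lower to 644 and 578; median-of-ratios scaling gave 643 and 566. At day 3 against day 1 the 1452 lower became 2335 with TMM scaling and 2202 with median-of-ratios scaling. The scalings of levels within MESP1 and SOX2-only cells were added after the data were seen; 80 of those ratios stayed within their interval and 22 did not. Member ratios by day moved by less than their interval in 188 cases and by more in 82. For shares of cells, 53 of 54 moved with another thinning depth. No paired analysis was possible because each day has 1 library and no test was run. Depth limits LINC02144 and LINC02086 at days 1 and 2 and every member in the 60 SOX2-only cells of day 3.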
